A study of Mus musculus with 16 samples.

Results

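The 7 genes described here, Rbp2, Bco1, Lrat, Isx, Scarb1, Aldh1a1 and Rdh7, take part in the uptake of vitamin A and the metabolism of retinoids in the small intestine. They were chosen by name as a functional group, out of 45513 genes in the deposited count files, and all 7 passed the filter on low counts that left 15323 genes for testing. The study separated cells of the small intestine that carry the tdTomato (tdTom) reporter from cells that do not, to define the transcripts of the secretory lineage. RNA was sequenced from 8 mice, with 1 library of EpCAM+tdTom+ cells and 1 library of EpCAM+tdTom- cells from each, which gave 16 libraries.

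All 8 mice were Atoh1(WT)CreERT2 R26RtdTom animals, so both fractions carry the same alleles. The tamoxifen-inducible recombinase CreERT2 sits downstream of the coding sequence of Atoh1, the transcription factor gene that starts secretory differentiation, and both Atoh1 copies carried it per the methods of the study. The reporter was on 1 copy of Rosa26 (tdTom/+), the background was C57BL/6, and the methods give an age of 8 to 16 weeks for males and females of the whole study. Both fractions had received the same tamoxifen, 1 mg per day for 3 days per the labels, and a different schedule appears elsewhere in the methods. The label is switched on where Atoh1 is expressed and then stays in the cell and its progeny, so the tdTom+ fraction holds secretory cells and the tdTom- fraction holds the other EpCAM+ cells, mainly absorptive ones. EpCAM, used to sort both fractions, marks the surface of epithelial cells. Per the methods of the study, the proximal small intestine was used. Its crypt-enriched fractions were pooled, and the fraction enriched in villus was thrown away before sorting. The levels given here are thus those of a crypt-enriched preparation.

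Vitamin A reaches the gut as provitamin A carotenoids of plants and as retinyl esters of animal foods. Enterocytes, the absorptive cells of the villus, take up carotenoids, cleave them to retinal, reduce retinal to retinol, bind retinol in the cytosol and esterify it for export in chylomicrons. A smaller part is oxidised to retinoic acid, which acts through nuclear receptors, and in the intestine the homeobox factor ISX is known to repress the genes of carotenoid uptake and cleavage when retinoic acid is plentiful.

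Of the 7 genes, 5 were lower in tdTom+ cells at an adjusted p under 0.01 and none was higher. Rbp2, Aldh1a1 and Rdh7, which bind retinol or oxidise retinoids, were lower by 7.74-fold, 7.13-fold and 5.24-fold. Lrat, the retinol esterifying enzyme, was lower by 2.76-fold, and Isx by 1.18-fold. Scarb1, the carotenoid receptor, and Bco1, the carotenoid cleaving enzyme, did not pass the test. Over all genes tested, 30.0% were lower in tdTom+ cells and 25.8% were higher by the same test (edgeR's quasi-likelihood test with the mouse as a block, Benjamini-Hochberg adjusted). The median log2 fold change was -1.46 over the 7 genes and 0.02 over all genes tested.

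Promoter windows were available from the RefSeq table for 6 of the 7 genes, with 8 windows in all (GRCm38.p6, the same build as the count files). Each window runs from 250 bases before to 50 bases after a start site and was searched on both strands for 8 motifs. Shown are the windows of Rbp2 and Aldh1a1, which fell most, of Isx, which fell least among the 5 genes called lower, and of Bco1, which did not pass the test and holds paired nuclear receptor motifs. All 4 are on the plus strand, 5′ to 3′, and capitals mark every motif match.

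Rbp2, chr9:98490287-98490586: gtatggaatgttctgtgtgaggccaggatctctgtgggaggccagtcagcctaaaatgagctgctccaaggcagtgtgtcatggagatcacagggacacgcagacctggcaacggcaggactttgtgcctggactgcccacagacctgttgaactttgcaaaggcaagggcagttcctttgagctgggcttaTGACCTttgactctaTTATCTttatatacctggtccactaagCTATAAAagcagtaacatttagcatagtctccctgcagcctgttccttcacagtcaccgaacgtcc

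Aldh1a1, chr19:20601718-20602017: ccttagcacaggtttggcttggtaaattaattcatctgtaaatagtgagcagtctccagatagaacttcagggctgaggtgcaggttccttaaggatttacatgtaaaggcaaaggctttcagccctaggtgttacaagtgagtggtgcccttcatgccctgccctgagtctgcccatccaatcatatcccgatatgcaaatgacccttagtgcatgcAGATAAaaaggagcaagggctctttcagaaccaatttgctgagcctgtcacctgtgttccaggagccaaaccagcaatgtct

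Isx, chr8:74872924-74873223: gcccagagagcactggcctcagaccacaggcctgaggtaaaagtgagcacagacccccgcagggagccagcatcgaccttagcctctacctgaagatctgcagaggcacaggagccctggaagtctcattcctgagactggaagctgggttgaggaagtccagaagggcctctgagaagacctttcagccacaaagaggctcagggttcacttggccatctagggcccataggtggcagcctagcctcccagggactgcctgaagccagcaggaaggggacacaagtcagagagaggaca

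Bco1, chr8:117095615-117095914: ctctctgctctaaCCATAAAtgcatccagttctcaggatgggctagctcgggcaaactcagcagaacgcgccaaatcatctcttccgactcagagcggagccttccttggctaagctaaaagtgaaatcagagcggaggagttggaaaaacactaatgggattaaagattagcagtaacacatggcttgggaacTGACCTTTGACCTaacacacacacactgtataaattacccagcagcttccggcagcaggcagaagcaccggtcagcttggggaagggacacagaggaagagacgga

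In the Rbp2 window, which starts inside the bounds of the gene in the count files, 3 motifs matched, all on the reverse strand. The nuclear receptor motif AGGTCA lay at -58 to -53 from the start site, the GATA motif AGATAA at -43 to -38, and the CDX motif TTTATNG at -16 to -10. The same letters were found in 16.3%, 11.2% and 10.9% of all 32851 promoter windows of the table. Of the 2 Aldh1a1 windows, the one shown held 1 match, AGATAA at -32 to -27 on the forward strand, and the other, at chr19:20492333-20492632, held none. In the Bco1 window, AGGTCA matched at -56 to -51 and at -49 to -44 on the reverse strand, and both matches together form a direct repeat with 1 base between them (DR1), an arrangement found in 13 of the 32851 windows (0.0396%). TTTATNG also matched there, at -237 to -231. The Isx window held none of the 8 motifs, nor did that of Lrat and 1 of the 2 of Rdh7, whose other window held AGGTCA at -105 to -100 on the reverse strand. The paired-type homeodomain motif TAATTA, the HNF4 motif CAAAGTCCA and direct repeats of AGGTCA with 2 or 5 bases between them (DR2, DR5) matched in none of the 8 windows, and they occur in 5.29%, 0.475%, 0.00913% and 0.00913% of all windows. These matches describe the letters of the windows, and the count data do not show which of them is bound.

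Total assigned counts ran from 17116405 to 25323567 per library. Against the sort, all 8 goblet genes and all 8 Paneth genes of the marker lists were higher in tdTom+ libraries and all 8 enterocyte genes were lower. Among the 8 tuft cell genes, 7 were tested and all 7 were higher in tdTom+ libraries. Of the 8 stem cell genes, 4 were higher in tdTom+ libraries, none was lower and 4 did not pass the test. The summed level of the enterocyte genes was 14550 to 38346 CPM (counts divided by the TMM-scaled library size, per 1e+06) in tdTom- and 1563 to 6021 CPM in tdTom+ libraries. Of 8 genes of intraepithelial lymphocytes and other immune cells, 6 were lower in tdTom+, and their sum was 10.5 to 145 CPM in tdTom- and 5.85 to 28.0 CPM in tdTom+ libraries. None of these 8 genes was at 0 in a whole fraction. The tdTom- libraries of mice 7 and 8 stood apart in the mean log2 CPM of the immune genes, at 3.56 and 3.75 against 0.18 to 1.99 in the other 6, and in that of the stem cell genes, at 6.57 and 6.27 against 5.54 to 5.89. They were lower than the others in the tuft cell genes, at 0.48 and 1.05 against 1.48 to 2.33. They were also the lowest in the enterocyte genes, at 10.5 and 11.4 against 11.5 to 12.0, with mouse 8 close to the next library. Results that rest on these 2 mice are given with and without them. In bulk libraries of sorted cells, fewer cells of a type and less RNA per cell cannot be told apart.

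Scarb1 (ENSMUSG00000037936, chr5:125277087-125341094, minus strand) encodes the scavenger receptor SR-B1, which takes up carotenoids and other lipids at the brush border. It was measured at 6.70, 8.96 and 14.2 CPM (lowest, median and highest of 8 libraries) in tdTom- cells and at 7.34, 10.1 and 12.3 CPM in tdTom+ cells. The ranges overlapped, and the gene was higher in tdTom+ cells of 4 mice (4, 6, 7 and 8) and lower in the other 4. The means were 9.19 ± 2.46 and 9.84 ± 1.75 CPM (SD, n = 8), a log2 fold change of 0.12 ± 0.12 (SE) that did not pass the test (edgeR adjusted p = 0.391). Mice 7 and 8 had the largest increases among the 8, to 173% and 138% of the tdTom- level, and without them the log2 fold change was -0.04 (edgeR adjusted p = 0.703). The counts behind these values, 120 to 310 per library, limit how small a difference could be seen.

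Bco1 (ENSMUSG00000031845, chr8:117095854-117133720, plus strand) encodes the dioxygenase that cleaves beta-carotene into retinal. In tdTom- cells of mice 1 to 8, in that order, its level was 6.52, 6.08, 9.05, 9.15, 3.61, 5.52, 1.28 and 1.35 CPM. In tdTom+ cells it was 2.28, 3.30, 4.71, 4.12, 2.54, 2.42, 3.31 and 2.95 CPM. The gene was thus lower in tdTom+ cells of mice 1 to 6 and higher in those of mice 7 and 8, whose tdTom- libraries held the least Bco1 of all 16, and the ranges overlapped.

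Over all 8 mice the means were 5.32 ± 3.06 CPM (tdTom-) and 3.20 ± 0.854 CPM (tdTom+; SD, n = 8), and the log2 fold change of -0.56 ± 0.28 (SE) did not pass the test (edgeR adjusted p = 0.0935). Without mouse 7 it was -0.78 (edgeR adjusted p = 0.00691) and passed the threshold. Without mice 7 and 8 it was -1.03 (edgeR adjusted p = 1.1e-05), and 6 of 7 genes were called lower. Leaving out both mice was decided after their values were seen. It takes away the only 2 mice in which Bco1 was higher in tdTom+ cells, so this p is no test of the gene. The tdTom- spread on the log2 scale was 1.10 (SD), against 0.36 in tdTom+ libraries. The counts in tdTom- libraries were 28 and 32 in mice 7 and 8 and 79 to 187 in the other mice. The immune and stem cell markers given above were high in the same 2 tdTom- libraries, and the tuft cell and enterocyte markers were low. The part of these markers in the Bco1 and Scarb1 results was not tested.

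Rbp2 (ENSMUSG00000032454, chr9:98486115-98509781, plus strand) encodes cellular retinol-binding protein II, which holds retinol and retinal in the cytosol of enterocytes. Its level was 1489, 2853 and 3759 CPM (lowest, median and highest) in tdTom- cells and 157, 375 and 641 CPM in tdTom+ cells. The highest tdTom+ library was below the lowest tdTom- library, and the gene was lower in tdTom+ cells of all 8 mice. The means were 2840 ± 680 and 380 ± 138 CPM (SD, n = 8), a log2 fold change of -2.95 ± 0.11 (SE, edgeR adjusted p = 3.85e-11). Counted from the lowest log2 fold change, the gene ranked 166 of the 15323 genes tested. Within single mice the tdTom+ level was 10.3% to 17.0% of the tdTom- level. Mouse 7 had the lowest level in both fractions, so that its ratio, 10.5%, lay inside the range of the other mice.

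Lrat (ENSMUSG00000028003, chr3:82892579-82903973, minus strand) encodes lecithin retinol acyltransferase, which turns the retinol bound to RBP2 into retinyl esters. Its level was 15.6, 28.4 and 35.6 CPM in tdTom- cells and 6.71, 9.84 and 13.2 CPM in tdTom+ cells (lowest, median and highest of 8). The groups did not overlap, and mouse 7 was the lowest in both. The means were 27.2 ± 7.12 and 9.71 ± 2.06 CPM (SD, n = 8), a log2 fold change of -1.46 ± 0.07 (SE, edgeR adjusted p = 5.98e-10). In single mice the tdTom+ level was 29.3% to 43.2% of the tdTom- level. In each of the 8 mice Rbp2 fell by more than Lrat, and the fitted log2 fold changes of the pair differed by 1.49.

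Rdh7 (ENSMUSG00000040134, chr10:127884028-127888817, minus strand) encodes a short-chain dehydrogenase of the retinol dehydrogenase family, whose members convert retinol to retinal. It was measured at 62.3, 159 and 216 CPM in tdTom- cells and at 11.8, 26.4 and 46.3 CPM in tdTom+ cells (lowest, median and highest of 8). The groups did not overlap, with mouse 7 lowest in both. The means were 155 ± 45.5 and 30.5 ± 12.9 CPM (SD, n = 8), a log2 fold change of -2.39 ± 0.09 (SE, edgeR adjusted p = 3.31e-11). In single mice the tdTom+ level was 15.2% to 24.6% of the tdTom- level.

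Rdh7 lies in a cluster of related genes on chromosome 10. The 6 others of that cluster with enough counts to test were lower in tdTom+ cells as well. Their log2 fold changes were -0.77 for Rdh1, -1.46 for Rdh9, -1.82 for Rdh16, -2.26 for Rdh19, -2.24 for Rdh18-ps and -3.00 for Rdh16f2. Reads of such similar genes can be divided between copies by the counting, the exons of Rdh16 and Rdh18-ps overlap on the same strand, and the exons of Rdh1 and Rdh9 overlap with those of Rdh16f1, which had 0 counts in all 16 libraries. The single values in the cluster are therefore uncertain.

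Aldh1a1 (ENSMUSG00000053279, chr19:20601961-20643462, plus strand) encodes a retinaldehyde dehydrogenase, which oxidises retinal to retinoic acid. Its level was 236, 542 and 811 CPM in tdTom- cells and 28.7, 71.0 and 146 CPM in tdTom+ cells (lowest, median and highest of 8). No tdTom+ library reached the lowest tdTom- library, that of mouse 7, which was also the lowest among the tdTom+ libraries. The means were 573 ± 179 and 85.8 ± 43.1 CPM (SD, n = 8), a log2 fold change of -2.83 ± 0.11 (SE, edgeR adjusted p = 4.14e-11). In single mice the tdTom+ level was 10.7% to 18.3% of the tdTom- level. The neighbouring paralog Aldh1a7, looked up because reads of both genes can be hard to separate, had a log2 fold change of -2.68 from 80.5 to 13.0 CPM.

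The other genes for this step were near the detection limit. Aldh1a2 had at most 4 counts in any tdTom- library and 0 in all 8 tdTom+ libraries, where 0 allows a level of up to 0.191 CPM (3 counts in the smallest library). Aldh1a3 had 3 to 10 counts per library in either fraction. Neither gene was tested, so of the retinaldehyde dehydrogenases Aldh1a1 was the one with a level that could be compared.

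Isx (ENSMUSG00000031621, chr8:74873173-74893506, plus strand) encodes the intestine-specific homeobox factor described above. Its level was 68.9, 83.8 and 103 CPM in tdTom- cells and 62.4, 73.4 and 85.4 CPM in tdTom+ cells (lowest, median and highest of 8). The ranges overlapped, but within each mouse the tdTom+ library was the lower one, at 73.2% to 97.9% of the tdTom- level. The means were 85.7 ± 10.4 and 72.3 ± 7.91 CPM (SD, n = 8), a log2 fold change of -0.24 ± 0.06 (SE, edgeR adjusted p = 0.00163). The call was lost without the mouse as a block (edgeR adjusted p = 0.0168), with only genes of at least 10 counts in every library (log2 fold change -0.12, edgeR adjusted p = 0.0553), with libraries thinned to the smallest total (-0.13, 0.0468) and without mouse 3 (-0.15, 0.0391). The tdTom- libraries of mice 7 and 8, lowest in Bco1, were the highest in Isx, at 103 and 96.3 CPM against 68.9 to 87.3 CPM in the others, and without these mice the log2 fold change of Isx was -0.20 (edgeR adjusted p = 0.00866).

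**Figure D1:**
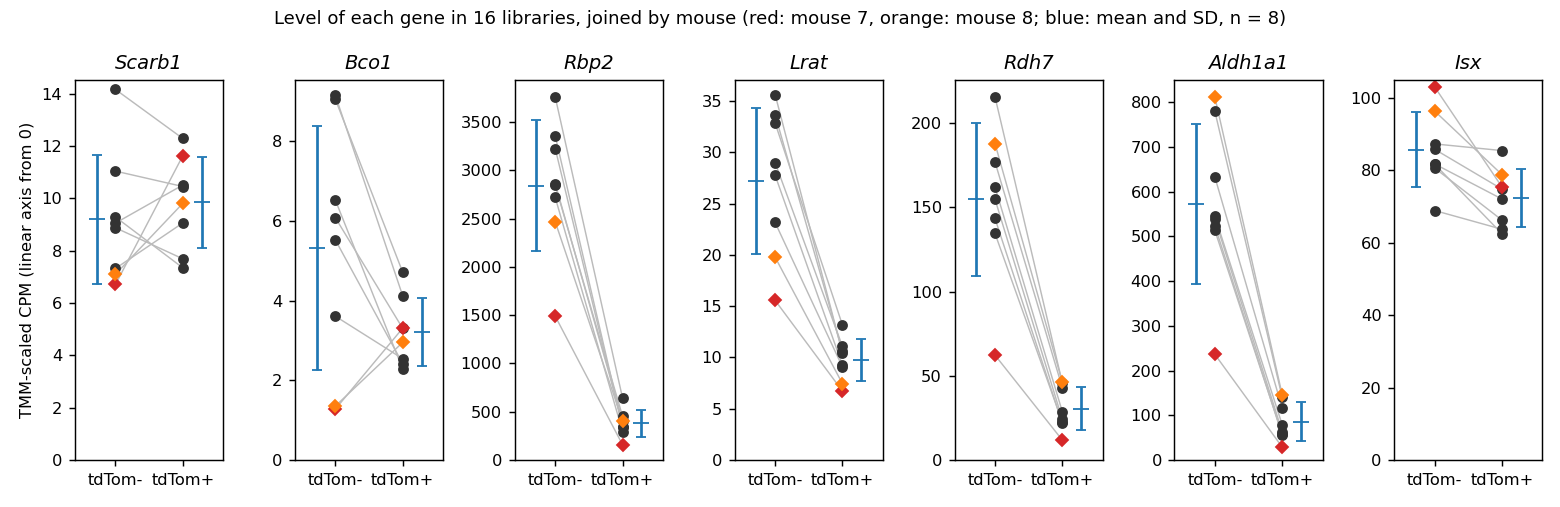
Level of each of the 7 genes (TMM-scaled CPM, linear axes that start at 0) in the tdTom- and tdTom+ library of each mouse, joined by mouse, with the mean and SD of 8 libraries in blue, mouse 7 in red and mouse 8 in orange. The lines of Rbp2, Lrat, Rdh7 and Aldh1a1 all fall and the groups do not overlap, while those of Bco1 fall in 6 mice and rise in mice 7 and 8, and those of Scarb1 rise in 4 mice and fall in 4.

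Non-overlapping ranges were seen for 4 of the 7 genes, Rbp2, Lrat, Rdh7 and Aldh1a1, and for 31.6% of all genes tested. These same 4 genes were called lower under each of the 19 alternative settings tried, with log2 fold changes of -3.02 to -2.83 for Rbp2.

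A wider list of 46 other retinoid genes was then compared in the same fit, and 33 of them passed the filter on low counts. Of these 33, 22 were lower in tdTom+ cells, 5 were higher and 6 did not pass the test, beside the 30.0% lower and 25.8% higher among all genes tested. Their median log2 fold change was -0.77.

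Among genes of uptake, Cd36, a fatty acid translocase that also takes up carotenoids, fell from 72.8 to 8.86 CPM (log2 fold change -3.06 ± 0.09, SE) and Npc1l1, the sterol transporter, from 920 to 210 CPM (-2.10 ± 0.10). Stra6l, which encodes an RBP4 receptor related to STRA6, rose from 12.5 to 29.5 CPM (1.24 ± 0.10), whereas Stra6 itself had at most 2 counts in any library. Plb1, the brush border phospholipase that hydrolyses retinyl esters, had a log2 fold change of 0.07 ± 0.34 and ranged from 0.581 to 15.0 CPM over the tdTom- libraries alone. Scarb1 thus stood apart from Cd36 and Npc1l1 in this group: they were lower in tdTom+ cells of all 8 mice, and it was lower in 4.

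In carotenoid cleavage, Bco2, which cuts carotenoids off-centre, was lower by 5.26-fold (log2 fold change -2.39 ± 0.09, SE) in all 8 mice, beside the value of -0.56 ± 0.28 for Bco1. The esterifying enzyme Dgat1 fell from 813 to 173 CPM (-2.24 ± 0.06), a larger change than that of Lrat (-1.46 ± 0.07). Differences between 2 genes in one fraction pair were not tested.

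The binding proteins were split. Rbp7, a cellular retinol-binding protein of the same family as Rbp2, was lower (log2 fold change -0.65 ± 0.17, SE), in 7 of 8 mice and with overlapping ranges. Its call was lost without the mouse as a block, with at least 10 counts in every library and with thinned libraries. It was also lost without mouse 3, without mouse 4, and without mice 7 and 8. The carriers of retinol in plasma were higher in tdTom+ cells: Rbp4 rose from 4.24 to 11.8 CPM (1.51 ± 0.16) and Ttr, which encodes transthyretin, from 3.58 to 14.8 CPM (2.07 ± 0.12). Fabp5, a fatty acid-binding protein that can carry retinoic acid, rose from 6.72 to 21.8 CPM (1.74 ± 0.12). Each of these 3 genes was higher in tdTom+ cells of all 8 mice, opposite to Rbp2. All 8 enteroendocrine marker genes were also higher in tdTom+ libraries, with a sum of 2054 to 3155 CPM against 597 to 1084 CPM in tdTom-, none of them was at 0 in a whole fraction, and their part in these 3 results was not tested.

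Of the 17 other oxidoreductases that act on retinol or retinal, 16 were tested. Of these, 13 were lower in tdTom+ cells, none was higher and 3 did not pass the test. Among all genes tested, 30.0% were lower and 25.8% higher. The 13 include Rdh1, Rdh9, Rdh16 and Rdh19 of the Rdh cluster, whose single values are uncertain. The oxidoreductases outside that cluster that passed the test and changed by at least 1 on the log2 scale were Adh4 (log2 fold change -2.40), Dhrs9 (-2.42), Retsat (-2.06), Adh7 (-1.95), Adh1 (-1.35) and Dhrs3 (-1.19). Adh1, an alcohol dehydrogenase that oxidises retinol, was the most counted of these, and went from 466 CPM to 184 CPM. Dhrs3, which reduces retinal back to retinol, went from 46.1 to 20.4 CPM. Dhrs9 and Adh7 had at most 67 and 78 counts in any library. The 3 that did not pass were Rdh10 (-0.12), Rdh11 (-0.19) and Rdh13 (-0.18). Compared with these 16, Aldh1a1 had a lower log2 fold change than any. Rdh7 (-2.39 ± 0.09, SE), itself in the Rdh cluster, was close to Adh4 (± 0.10) and Dhrs9 (± 0.24) and lower than the rest. Rdh16f2 of that cluster (-3.00), which is not among the 16, was lower than both Aldh1a1 and Rdh7.

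Of the receptors, Rxra was lower (log2 fold change -0.88 ± 0.06, SE), as was Rara (-0.24 ± 0.05), and Rxrb did not pass the test (-0.04 ± 0.05). Rarg was higher, from 0.894 to 2.81 CPM (1.63 ± 0.18), with 13 to 90 counts per library. Tgm2 and Nrip1, which retinoic acid induces in many cells, were lower (-0.54 ± 0.07 and -0.58 ± 0.07). The retinoic acid hydroxylase genes Cyp26a1, Cyp26b1 and Cyp26c1 had at most 5, 12 and 1 counts in any library and were not tested.

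**Figure D2:**
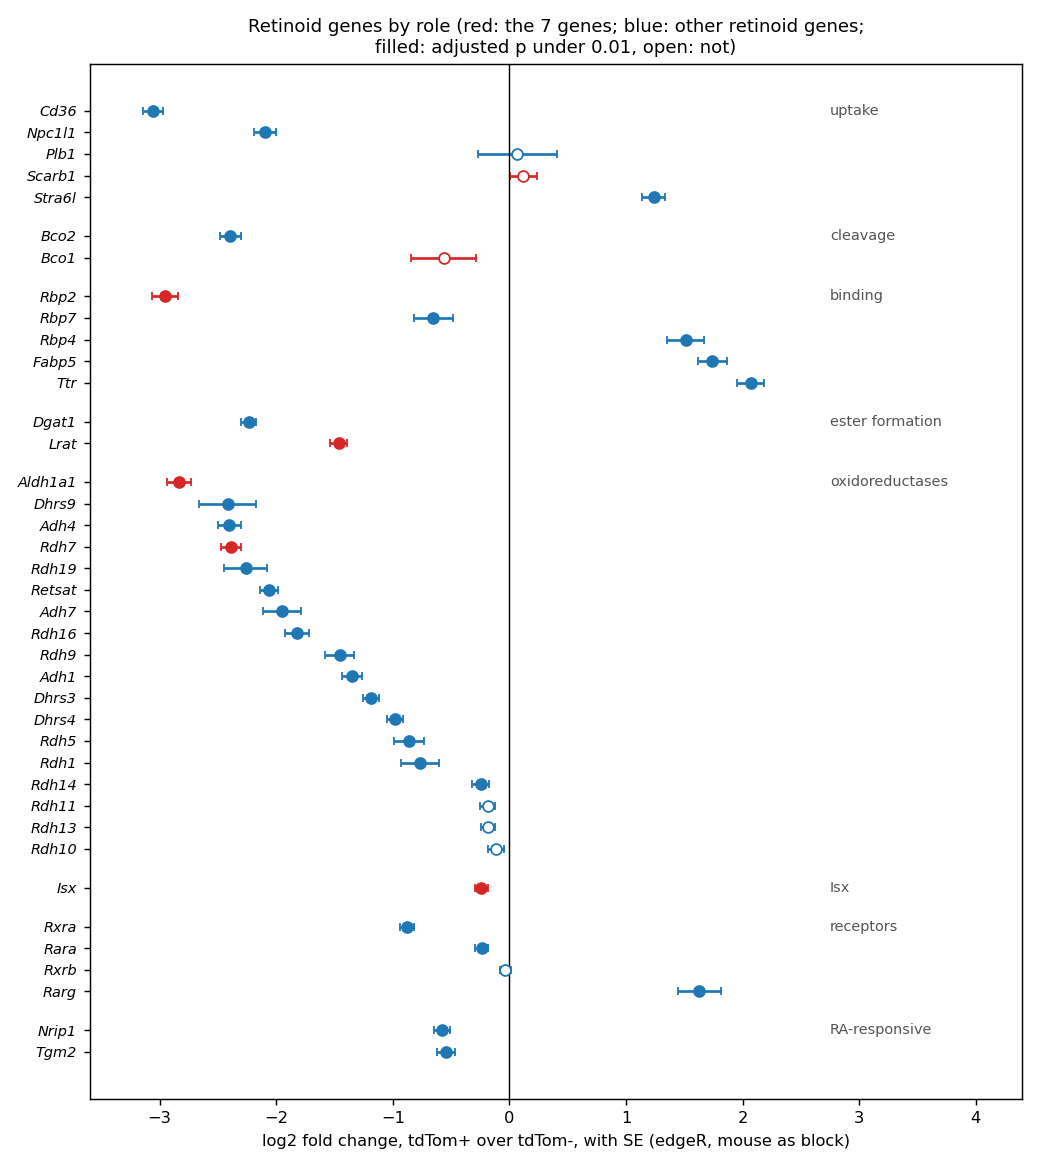
Log2 fold change of tdTom+ over tdTom- cells with its SE (horizontal axis) for retinoid genes tested, grouped by role, with the 7 genes in red and the others in blue, and filled points for an adjusted p under 0.01. None of the oxidoreductases is a filled point on the right of 0, and Stra6l, Rbp4, Fabp5, Ttr and Rarg are the 5 filled points on the right.

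Levels between genes were compared per length, as TPM (counts divided by exon length, scaled to a sum of 1e+06 in each library), within each fraction. In tdTom- cells Rbp2 was the most abundant of the 7, with 5614 ± 1842 TPM (SD, n = 8), followed by Aldh1a1 with 531 ± 213, Rdh7 with 177 ± 72.2, Isx with 88.7 ± 12.9, Lrat with 9.65 ± 3.35, Bco1 with 4.0 ± 2.29 and Scarb1 with 2.04 ± 0.685 TPM. The retinol-binding protein was thus 10.6 times as abundant in mean TPM as the next gene. Only Rbp2 from Aldh1a1 and Isx from Lrat were separated without overlap of their ranges, while the ranges of the other neighbours in this order overlapped. Bco1 was above Scarb1 in 5 of 8 tdTom- libraries.

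In tdTom+ cells Rbp2 was still the most abundant, with 532 ± 243 TPM, and again did not overlap with Aldh1a1 (56.4 ± 31.4 TPM). Isx, with 52.5 ± 7.84 TPM, came next and above Rdh7 (24.5 ± 12.0 TPM), in contrast to their order in tdTom- cells. Isx was above Rdh7 in all 8 tdTom+ libraries and below it in 7 of 8 tdTom- libraries. Aldh1a1 was above Isx in 4 of 8 tdTom+ libraries. Lrat (2.39 ± 0.661 TPM), Bco1 (1.63 ± 0.410 TPM) and Scarb1 (1.51 ± 0.326 TPM) were the lowest, with overlapping ranges between neighbours. TPM values are shares of a library, and goblet and Paneth transcripts make up much of the tdTom+ libraries, so that a TPM was not compared between the fractions.

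**Figure D3:**
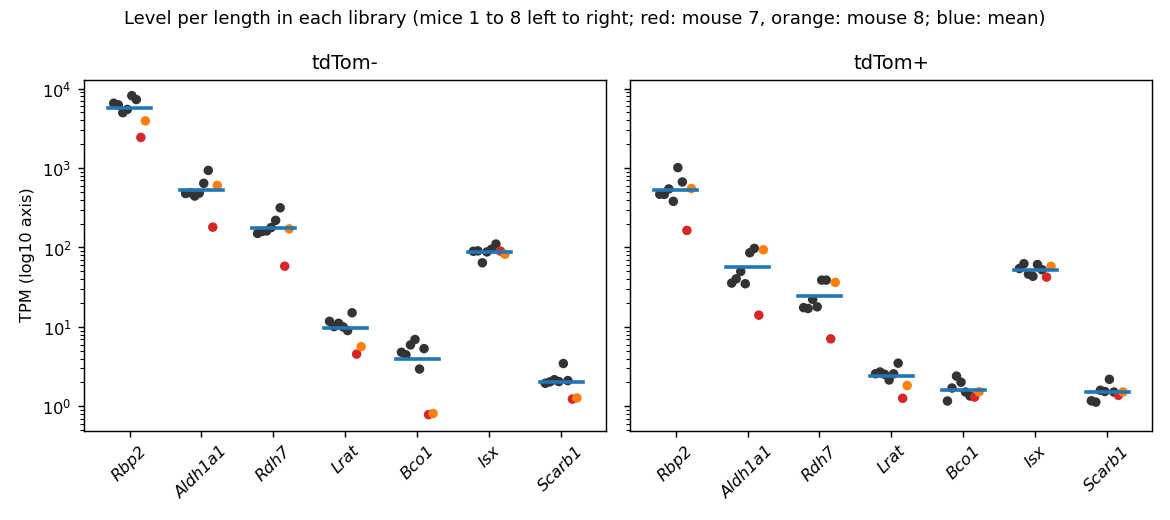
Level per length of each of the 7 genes (TPM, log10 axis) in the 8 tdTom- libraries (left) and the 8 tdTom+ libraries (right), with the mean as a blue line, mouse 7 in red and mouse 8 in orange. Rbp2 lies above the other genes in both fractions, at 5614 and 532 TPM on average, and Isx holds a narrow range in each fraction.

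Since the fractions differ in absorptive cells, the difference of each gene was set against that of a panel of 8 enterocyte genes (Apoa1, Apoa4, Fabp1, Fabp2, Alpi, Lct, Sis and Slc5a1) in the same mouse. The panel differed by -3.03 ± 0.30 (SD, n = 8) in mean log2 CPM between the fractions. The difference of Rbp2 lay within 0.08 ± 0.10 of the panel, below it in 2 mice and above it in 6. Aldh1a1 lay above the panel by 0.20 ± 0.10 and Rdh7 by 0.64 ± 0.10, in all 8 mice. Lrat lay above it by 1.58 ± 0.29, Bco1 by 2.57 ± 0.98, Isx by 2.79 ± 0.33 and Scarb1 by 3.15 ± 0.45, also in all 8 mice. The panel is a mean, and its single genes had log2 fold changes of -3.65 (Apoa4) to -2.39 (Fabp2). Rbp2 (-2.95) and Aldh1a1 (-2.83) lay inside that range and Rdh7 (-2.39) at its upper end. Lrat, Bco1, Isx and Scarb1 lay above it. The 7 genes thus ranged from a fall as large as that of the enterocyte markers to no change that passed the test, and these values are a description with no test.

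**Figure D4:**
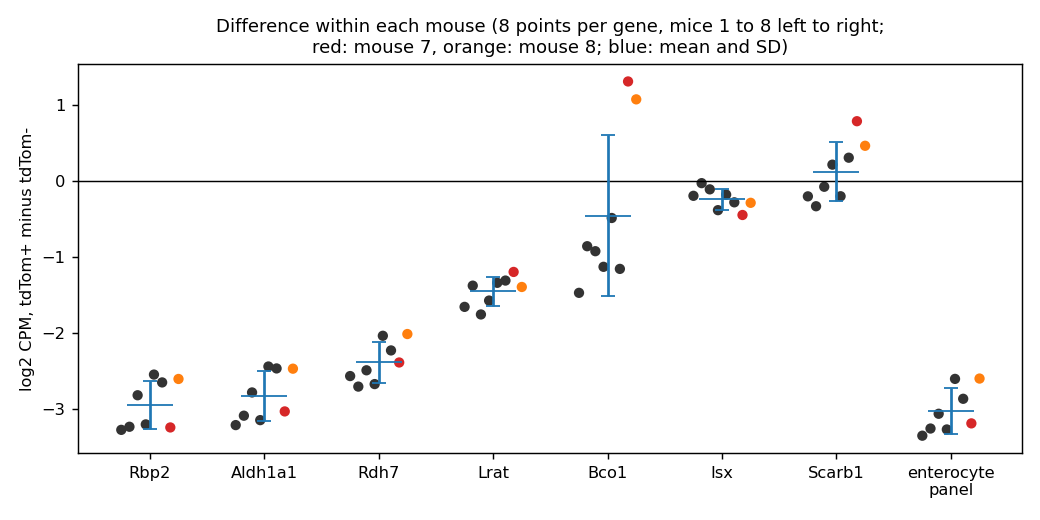
Difference in log2 CPM, tdTom+ minus tdTom-, of each of the 7 genes and of the enterocyte panel in mice 1 to 8 (left to right), with mean and SD in blue, mouse 7 in red and mouse 8 in orange. Rbp2 and Aldh1a1 follow the panel from mouse to mouse, around -3, and Rdh7 follows it as closely at a higher level. Bco1 lies above 0 in mice 7 and 8 only.

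Over the 16 libraries, the genes with patterns most like each of the 7 were found by the root mean square (RMS) difference in log2 CPM, after each gene was centred on its own mean, among 8658 genes with at least 10 CPM in tdTom- cells. Nearest to Rbp2 were Erich4 and Fabp1 (0.099 and 0.117), nearest to Aldh1a1 were Reg3a and Ces2a (0.117 and 0.136), and nearest to Rdh7 were Cyp2c65 and Maob (0.142 and 0.154). Lrat was nearest to Cyp2u1 and Gramd1c (0.197 and 0.200). Isx was nearest to Pmpca and Psmd14 (0.0863 and 0.102), and Scarb1 to Flcn and Setd7 (0.219 and 0.221). For Bco1 the nearest genes, Gm17131 and Sectm1a, were farther away (0.378 and 0.402). Bco1 and Scarb1, with means of 5.32 and 9.19 CPM in tdTom- cells, were themselves below the limit of 10 CPM set for the candidates. The part of low counts in their distances was not tested. Among the 7 genes themselves the closest pair was Aldh1a1 and Rdh7, with an RMS difference of 0.256, and Aldh1a1 fell by more than Rdh7 in all 8 mice. Rbp2 and Aldh1a1 were next in closeness, with 0.384. All of these distances share the same 16 libraries and the same difference between the fractions.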

How the data were processed

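RNA from the small intestine of 8 mice was measured in 16 libraries, 8 of EpCAM+tdTom+ and 8 of EpCAM+tdTom- live cells (RNeasy Micro Plus, TruSeq Stranded mRNA, 50 bp single-end reads). The authors aligned the reads to GRCm38 with TopHat2 (version 2.1.1 in the submitters' processing notes) and deposited raw counts per Ensembl gene, not normalized. Per the file headers these counts came from featureCounts 1.5.0-p1, on exons, on the reverse strand and with primary alignments only, whereas the notes name Subread 1.5.2. The exon length of each gene was also taken from the deposited files. Symbols were matched for 44585 of 45513 identifiers. Sequences are from RefSeq (GRCm38.p6).

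The counts were analysed in R 4.3.3 with edgeR 4.0.16: filterByExpr, TMM scaling and the quasi-likelihood F-test with the mouse as a block, with Benjamini-Hochberg adjustment over 15323 genes and a threshold of 0.01. The study's methods used DESeq2 and name no block, and the block was used here because both fractions came from each mouse. The replicate numbers of the titles were taken as mouse numbers. As a check of this pairing, deviations from the group means correlated between libraries of the same number (mean r 0.43, range 0.24 to 0.63, 8 pairs) and not between others (mean r -0.06), and all 8 libraries of a fraction matched their own number best. The SE was derived from the log2 fold change and its F statistic. Log2 CPM used a prior count of 2. On simulated data with 200 of 15323 genes changed by a log2 fold change of 1, the fit recovered 96.5%.

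Total counts were 17116405 to 25323567 per library, and 3 counts correspond to 0.123 to 0.191 CPM, a floor that covers counting error only. The 7 genes, the other gene lists and the tests were chosen with earlier results of these data known. The named genes are the 7 genes, the other retinoid genes past the threshold that changed by at least 1 on the log2 scale, the Rdh cluster, and for each of the 7 the 2 genes most like it. Other genes of the retinoid list, the markers and Aldh1a7 are named after their values were seen. Alternatives were no replicate block, relative log expression, total count and trimmed TMM scaling, DESeq2 1.42.0, limma-voom (limma 3.58.1), no filter, at least 10 counts in every sample, thinning to the smallest total, a threshold of 0.05 and leaving out each mouse. Leaving out mice 7 and 8 together was added after seeing the data. A comparison of protein sequences was not made. Values of 1 gene of the wider retinoid list are not reported here, and it is kept in the counts.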

Additional observations from a re-analysis of the deposited data

Results flagged for a closer look

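The tdTom- library of mouse 7 stood apart from the other 7 tdTom- libraries in 3 of the 7 genes. Its log2 CPM of Rbp2 was 10.54, with the nearest library at 11.27 and the highest at 11.88. Its log2 CPM of Aldh1a1 was 7.88, against 9.0 and 9.66, and that of Rdh7 was 5.96, against 7.07 and 7.75. The gap to the nearest library made up 0.545, 0.629 and 0.620 of the whole range of the 8 values, above Dixon's 95% limit. Of 21 sets of 8 values examined, 3 passed this limit, and chance alone is expected to give 1.05. All 3 are values of the same library and the 21 sets share the same 8 mice, so they are not independent. The 3 thus cannot be read as an excess over 1.05. The mean log2 CPM of the 8 enterocyte genes was also lowest in this library, at 10.5 against 11.4 to 12.0 in the others, and that of the immune genes was 3.56. Their part in these values was not tested. The tdTom+ library of mouse 7 was the lowest of its fraction in the same 3 genes, and without mice 7 and 8 the log2 fold changes of Rbp2, Aldh1a1 and Rdh7 were -2.96, -2.85 and -2.45.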

How the results depend on the processing

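Rbp2, Lrat, Aldh1a1 and Rdh7 were called lower under all 19 alternatives. Without the replicate block, the log2 fold change of Isx was -0.24 and missed the threshold (edgeR adjusted p = 0.0168), and no other call among the 7 genes changed. Isx also missed it with at least 10 counts in every sample (-0.12), with thinned libraries (-0.13) and without mouse 3 (range over the 8 mice left out, -0.27 to -0.15). In these 3 settings the median log2 fold change of all genes moved from 0.02 to 0.12, and relative to that median Isx was at -0.25, -0.26 and -0.28, beside -0.26 under the settings of the report. There the split of all genes called higher and lower went from 3956 and 4600 to 4448 and 3356, 4911 and 3770, and 4529 and 3626. Bco1 ranged from -0.78 to -0.39 with 1 mouse left out and passed the threshold without mouse 7, and without mice 7 and 8 it was -1.03, where Scarb1 was at -0.044. Over all alternatives the adjusted p of Bco1 ran from 1.1e-05 (edgeR, without mice 7 and 8, a setting added after seeing the data) to 0.299.

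Besides Scarb1, the sign of 3 other genes that did not pass the test turned. Plb1 was at -0.27 without the replicate block, -0.10 by limma-voom, -0.038 without mice 7 and 8, below 0 without mouse 1, 4, 6 or 7, and ranged from -0.13 to 0.49 with 1 mouse left out. Rdh10 was at 0.0012 with at least 10 counts in every sample. Rxrb was at 0.082 with at least 10 counts in every sample, 0.061 with thinned libraries and 0.071 without mouse 3 (range with 1 mouse left out, -0.054 to 0.071). The causes were not tested. The genes called lower were 4 to 6 of the 7 and 16 to 24 of the other retinoid genes, and those called higher were 0 and 5 throughout. Over all genes, of which 13239 to 27852 were tested, 3356 to 5229 were called lower and 3414 to 4911 higher. The 16 came with at least 10 counts in every sample, where Dhrs9, Adh7 and Rdh19 were no longer tested. Bco1, with 28 to 187 counts per library, had the least depth of the 7.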
